A study of Homo sapiens with 12 samples.

Results

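The genes described here keep mitochondrial proteins folded, cut them when they fail, or report that failure to the cytosol. They are 10 of the 60662 genes in the table, found by symbol: the stress relay genes DELE1 and OMA1, the chaperone genes HSPD1, HSPE1 and HSPA9, and the genes of LONP1, CLPP, CLPX, YME1L1 and AFG3L2, which form proteases. All 10 were listed once and all 10 passed the filter on low values. They were measured by RNA-seq in NCI-H295R cells, a line of human adrenocortical carcinoma that secretes cortisol, which is 1 line and not normal adrenal tissue. Confluent cultures were kept for 12 h without serum. They were then given vehicle (VEH, 0.1% DMSO), 30 µM CJ28 or 30 µM metyrapone (MET) for 24 h, with 4 samples per group. CJ28 and MET both inhibit cortisol synthesis, and the study asked how they differ in their effect on gene expression. The submitters call the samples biological replicates. It is not said whether they were cultured on separate days, and p-values measure the spread between these samples.

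Most mitochondrial proteins are made in the cytosol and cross both membranes unfolded. HSPA9 (mortalin) pulls them into the matrix, and the chaperonin formed by HSPD1 (HSP60) and its lid HSPE1 (HSP10) folds them. LONP1 and the CLPX-CLPP complex degrade proteins in the matrix, while YME1L1, AFG3L2 and OMA1 are proteases of the inner membrane. When the inner membrane is under stress, OMA1 cuts DELE1, which then activates the kinase EIF2AK1 (HRI) and through it the integrated stress response. In steroidogenic cells LONP1 is also known to degrade STAR, the protein that brings cholesterol into mitochondria.

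In cells treated with CJ28 these genes did not move as a unit. The matrix chaperonin fell: HSPE1 was at 0.417 and HSPD1 at 0.604 of their mean TPM in VEH. LONP1 and HSPA9 rose, to 1.80 and 1.47 times VEH. CLPP, CLPX and YME1L1 rose by less. OMA1 was lower, while DELE1 and AFG3L2 were lower on the scale of the table as deposited but did not pass relative to coding genes alone. In cells treated with MET none of the 10 passed the test.

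TPM gives each gene's share of all transcripts in a library, corrected for transcript length, so genes may be compared with each other, but a share also falls when other transcripts take more. Nuclear protein-coding genes held 24.3% to 24.8% of TPM in VEH, 24.1% to 24.6% in MET and 21.3% to 21.4% in CJ28. The median log2 fold change of all 16815 genes tested was -0.13 between CJ28 and VEH and -0.03 between MET and VEH. Changes are therefore also given after TPM was recomputed over nuclear protein-coding genes alone, called coding-only TPM. Of 7 adrenocortical markers, all 7 reached 0.5 TPM in a sample of each group. Their summed level was 271.2 to 281.8 TPM in VEH, 270.0 to 284.8 in MET and 109.0 to 116.7 in CJ28, and its part in the results below was not tested. Markers of fibroblasts, endothelium, leukocytes and chromaffin cells summed to at most 1.20 TPM per list in any sample. In bulk RNA, fewer cells of a kind and less RNA per cell cannot be told apart.

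In VEH the levels spanned a wide range. HSPD1 was highest at 639 ± 13.9 TPM (mean ± SD, n = 4 here and in all that follows), rank 17 among 19944 nuclear protein-coding genes. HSPE1 followed with 429 ± 10.3 and HSPA9 with 157 ± 2.96. The other genes lay far lower, from 39.0 ± 1.29 for YME1L1 down to 13.8 ± 1.03 for CLPP and 8.06 ± 0.992 for OMA1. The samples of CLPX (26.1 ± 1.46) overlapped with those of the next gene, LONP1 (24.1 ± 1.05), and the latter with those of AFG3L2 (22.9 ± 0.774). The remaining neighbours in this order did not overlap. In CJ28 the order changed at several places. HSPA9 (231 ± 2.23 TPM) stood above HSPE1 (179 ± 7.81), and LONP1 (43.4 ± 2.43) lay in the range of YME1L1 (43.9 ± 1.95). The 10 genes summed to 1340 to 1404 TPM in VEH, 1338 to 1420 in MET and 945 to 997 in CJ28, and most of that sum was HSPD1 and HSPE1.

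**Figure D1:**
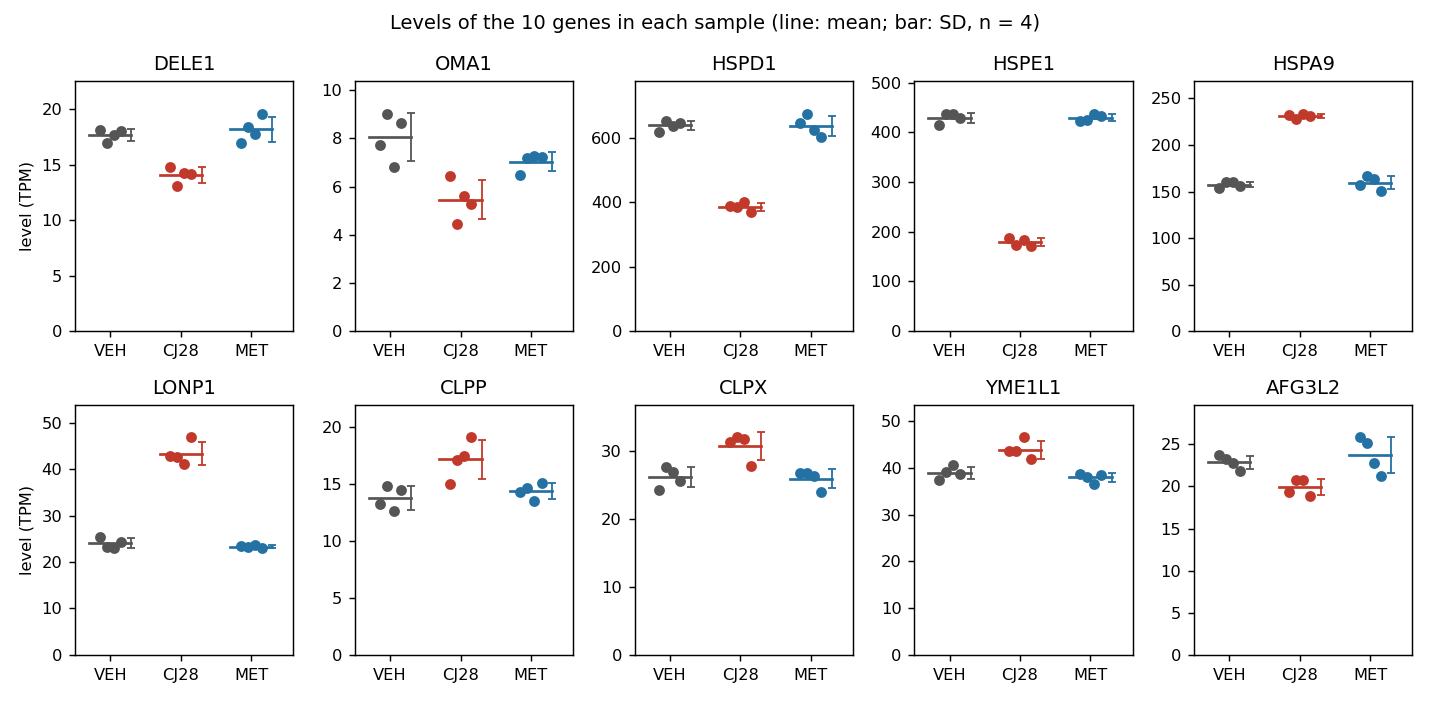
Level of each of the 10 genes in TPM (vertical axes, from 0) in every VEH, CJ28 and MET sample (horizontal axis). Points are samples, horizontal lines are means and bars are SD (n = 4). HSPE1 was at 170.5 to 187.2 TPM in CJ28 and at 415 or more elsewhere, whereas HSPA9 was at 228.4 to 233.6 in CJ28 and at 150.9 to 167.1 elsewhere.

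Between CJ28 and VEH, all 10 genes passed in limma (adjusted p below 0.05), 5 higher and 5 lower. Such calls were common in this comparison: 57% of all genes tested passed, 19.9% higher and 37.1% lower. In all 10 genes the CJ28 and VEH samples did not overlap in TPM, which held for 50.3% of the genes tested. Most expressed genes were thus called, and the count of calls is not read as particular to these 10. Coding-only TPM was tested over the 12506 nuclear protein-coding genes among those tested, and there 65.6% passed, 39.2% higher and 26.3% lower. The split of the 10 was then 5 higher, 3 lower and 2 not called. Of the called genes among these 12506, 63.8% were lower on the deposited scale and 40.2% with coding-only TPM. The median log2 fold change of the 10 was -0.01, against -0.13 for all genes tested. Single-gene exact permutation tests gave p = 0.0286 (two-sided) for each of the 10, the smallest that 4 against 4 samples allow.

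HSPE1 (ENSG00000115541.11, chromosome 2, 197500140 to 197503449 on GRCh38, plus strand) encodes the lid of the chaperonin. Its TPM was 415.18, 437.43, 436.52 and 427.8 in VEH and 187.2, 174.3, 183.66 and 170.52 in CJ28. In MET it was 423.19, 423.75, 436.93 and 433.73. The 4 CJ28 samples lay far below the other 8, which shared one range. From VEH to CJ28 the fitted log2 fold change was -1.26 (standard error, SE, 0.033, limma adjusted p = 1.4e-11), and 3.54% of all genes tested had a more negative one.

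HSPD1 (ENSG00000144381.17, chromosome 2, 197486584 to 197516737, minus strand) encodes the barrel of the chaperonin. Its TPM was 620.24, 652.57, 638.73 and 645.5 in VEH, and 388.63, 384.44, 401.94 and 369.86 in CJ28. In MET it was 646.41, 675.87, 624.56 and 604.43. Again every CJ28 sample was below all others, and MET and VEH overlapped. Its log2 fold change from VEH to CJ28 was -0.73 (SE 0.037, limma adjusted p = 5.7e-09), a smaller decrease than that of HSPE1. With coding-only TPM the changes were -1.06 for HSPE1 and -0.52 for HSPD1.

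HSPD1 and HSPE1 lie head to head and the whole span of HSPE1, 3310 bases, falls inside the annotated span of HSPD1 on the other strand. The library kit keeps strand, but whether the quantification used it is not given in the sources used here. MOB4, which overlaps HSPD1 on the opposite strand, was at 53.0 ± 4.19 TPM in VEH and 29.4 ± 3.96 in CJ28. Both chaperonin genes have many near-identical processed pseudogenes, between which RSEM could have split reads. Adding the 17 pseudogene entries of HSPD1 brought 2.45 to 4.93 TPM per sample, and adding the 27 pseudogene and readthrough entries of HSPE1 brought 10.3 to 20.8 TPM. With these sums the log2 fold change was -0.73 for HSPD1 and -1.23 for HSPE1.

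Because both genes moved in the same direction from a shared start region, their promoter windows are shown, each reaching from 250 bases before to 50 bases after a RefSeq start site (GRCh38.p14). RefSeq places one HSPD1 start 105 bases and another 539 bases before the HSPE1 start. The window of the farther HSPD1 start, chr2:197499791-197500090 on the minus strand, and that of HSPE1, chr2:197500129-197500428 on the plus strand, do not share bases. Capitals mark a heat shock element, the DNA motif bound by the heat shock factor HSF1, searched on both strands as the core GAANNTTC and as 3 alternating units of GAA and TTC that stand 2 bases apart, a longer motif that contains the core.
HSPD1: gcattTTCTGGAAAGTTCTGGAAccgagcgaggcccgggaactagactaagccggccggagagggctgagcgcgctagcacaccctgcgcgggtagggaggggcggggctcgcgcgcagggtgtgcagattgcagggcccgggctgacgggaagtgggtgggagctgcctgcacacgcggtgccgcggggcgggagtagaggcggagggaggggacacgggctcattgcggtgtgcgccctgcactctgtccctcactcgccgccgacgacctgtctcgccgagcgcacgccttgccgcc
HSPE1: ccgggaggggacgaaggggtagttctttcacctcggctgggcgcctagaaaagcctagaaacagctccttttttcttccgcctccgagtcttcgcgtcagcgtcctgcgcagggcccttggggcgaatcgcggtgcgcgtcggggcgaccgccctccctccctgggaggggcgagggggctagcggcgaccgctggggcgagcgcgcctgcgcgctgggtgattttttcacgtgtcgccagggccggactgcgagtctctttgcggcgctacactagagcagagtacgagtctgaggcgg
The capitals in the HSPD1 window hold overlapping matches to the longer motif on either strand, which share the core. The core lies at 197500073 to 197500080 on chromosome 2, 299 bases before the HSPE1 start. As HSPD1 is read on the minus strand, the core lies after the nearer HSPD1 start. The longer motif is present in 0.49% and the core in 6.77% of all 35116 windows of this length. Of the 10 windows of these genes 1 held either motif. Neither was found in the HSPE1 window, nor in that of the nearer HSPD1 start, which shares 204 bases with it and is not printed, and no binding was measured in these data.

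HSPA9 (ENSG00000113013.15, chromosome 5, 138553756 to 138575416, minus strand) encodes the HSP70 of the matrix. Its TPM was 154.15, 159.91, 159.88 and 155.61 in VEH, and 232.2, 228.39, 233.64 and 230.85 in CJ28. In MET it was 157.04, 167.05, 163.32 and 150.87. The CJ28 samples formed a narrow range above the other 8. From VEH to CJ28 it changed by 0.56 on the log2 scale (SE 0.032, limma adjusted p = 1.7e-08), or 0.76 with coding-only TPM. Only 1 pseudogene entry of HSPA9 was listed, at 0.08 TPM or less.

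LONP1 (ENSG00000196365.12, chromosome 19, 5691834 to 5720572, minus strand) encodes the ATP-dependent Lon protease of the matrix. Its TPM was 25.4, 23.32, 23.13 and 24.37 in VEH, and 42.81, 42.59, 41.22 and 46.86 in CJ28. In MET it was 23.41, 23.35, 23.59 and 22.93. The CJ28 samples were all above 41 TPM and the other 8 all below 26. The log2 fold change was 0.85 (SE 0.044, limma adjusted p = 5.8e-09) and 1.05 with coding-only TPM, with 4.05% of all genes tested above it on the scale as deposited. RPL36, a ribosomal protein gene, overlaps LONP1 on the opposite strand and had 263 ± 3.46 TPM in VEH and 292 ± 5.07 in CJ28.

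Since HSPA9 and LONP1 were the members that rose most, their windows are printed as well, the HSPA9 one at chr5:138575352-138575651 and the upstream one of LONP1 at chr19:5720403-5720702, both on the minus strand. Capitals mark the core of the site of NRF1, a factor that drives many genes of mitochondrial proteins, searched as GCGCA followed at once by TGCGC, which reads the same on both strands. The HSPA9 window holds none, and neither does the window of the other LONP1 start, at chr19:5720097-5720396, which is not printed.
HSPA9: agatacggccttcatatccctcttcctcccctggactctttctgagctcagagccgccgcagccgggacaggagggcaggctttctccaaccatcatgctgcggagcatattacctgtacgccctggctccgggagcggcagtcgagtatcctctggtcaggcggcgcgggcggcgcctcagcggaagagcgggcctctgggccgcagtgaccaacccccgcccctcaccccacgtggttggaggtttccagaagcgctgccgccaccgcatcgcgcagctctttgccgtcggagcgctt
LONP1: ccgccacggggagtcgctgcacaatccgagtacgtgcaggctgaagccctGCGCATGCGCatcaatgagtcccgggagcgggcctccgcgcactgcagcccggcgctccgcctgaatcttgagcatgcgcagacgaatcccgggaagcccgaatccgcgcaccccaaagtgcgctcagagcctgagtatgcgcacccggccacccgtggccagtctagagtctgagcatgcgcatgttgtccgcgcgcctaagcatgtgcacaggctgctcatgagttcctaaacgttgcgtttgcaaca
That core was in 1.24% of all windows and in 1 of the 10 windows of these genes, the one shown. TGATGNAA, the core of the composite site of ATF4 and CHOP, was in 3.62% of all windows and in none of the 10. RefSeq windows matched 8 of the 10 genes, all but CLPP and YME1L1. A match is only a run of letters, and its absence from a window says nothing of a factor.

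CLPP (ENSG00000125656.11, chromosome 19, 6361531 to 6370242), the peptidase chamber of a matrix protease, ranged from 12.63 to 14.82 TPM in VEH, from 14.99 to 19.11 in CJ28 and from 13.52 to 15.11 in MET. Its log2 fold change from VEH to CJ28 was 0.31 (SE 0.073, limma adjusted p = 0.0028). CLPX (ENSG00000166855.9, chromosome 15, 65148219 to 65185342), the ATPase that unfolds substrates for CLPP, ranged from 24.3 to 27.61 TPM in VEH, from 27.73 to 31.98 in CJ28 and from 23.9 to 26.8 in MET. Its log2 fold change was 0.23 (SE 0.058, limma adjusted p = 0.0042), and the lowest CJ28 sample stood just above the highest VEH sample. Both genes of this protease thus rose, by less than LONP1. With coding-only TPM the changes were 0.52 for CLPP and 0.44 for CLPX.

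YME1L1 (ENSG00000136758.18, chromosome 10, 27110112 to 27155266) encodes a protease of the inner membrane whose active site faces the intermembrane space. It ranged from 37.49 to 40.59 TPM in VEH, from 41.79 to 46.5 in CJ28 and from 36.56 to 38.59 in MET. It changed by a log2 fold change of 0.17 (SE 0.038, limma adjusted p = 0.0023) and 0.38 with coding-only TPM. MASTL, a kinase gene that overlaps YME1L1 on the opposite strand, was at 12.7 ± 0.379 TPM in VEH and 8.91 ± 0.329 in CJ28. AFG3L2 (ENSG00000141385.10, chromosome 18, 12328944 to 12377227) encodes a subunit of the protease that faces the matrix. It ranged from 21.87 to 23.68 TPM in VEH, from 18.9 to 20.79 in CJ28 and from 21.25 to 25.82 in MET. Its log2 fold change was -0.20 (SE 0.06, limma adjusted p = 0.013), close to the median of all genes, and it was 0.0060 with coding-only TPM (limma adjusted p = 0.93). A lower AFG3L2 level was thus seen only relative to all transcripts and not relative to the summed TPM of coding genes. On that second scale the median log2 fold change of the coding genes tested was 0.09.

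OMA1 (ENSG00000162600.12, chromosome 1, 58415384 to 58546802) encodes the protease that cuts DELE1, and also OPA1, which shapes the inner membrane. Its TPM was 7.74, 9.03, 6.81 and 8.65 in VEH, and 6.45, 4.47, 5.62 and 5.29 in CJ28. In MET it was 6.48, 7.17, 7.29 and 7.23. The spread in VEH was wide for its level, and the highest CJ28 value was just under the lowest of the other 8. The fitted log2 fold change was -0.56 (SE 0.11, limma adjusted p = 7.9e-04), and -0.36 with coding-only TPM (limma adjusted p = 0.0072).

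DELE1 (ENSG00000081791.9, chromosome 5, 141923855 to 141942047) encodes the messenger of the relay. Its TPM was 18.19, 16.93, 17.67 and 18.03 in VEH, and 14.82, 13.14, 14.24 and 14.17 in CJ28. In MET it was 17, 18.41, 17.77 and 19.62. The CJ28 samples were below all others without overlap. The log2 fold change was -0.33 (SE 0.051, limma adjusted p = 1.4e-04). With coding-only TPM it was -0.12, and the adjusted p in limma was 0.051, so this call did not hold on that scale. RNA levels do not show how much OMA1 or DELE1 protein was active.

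**Figure D2:**
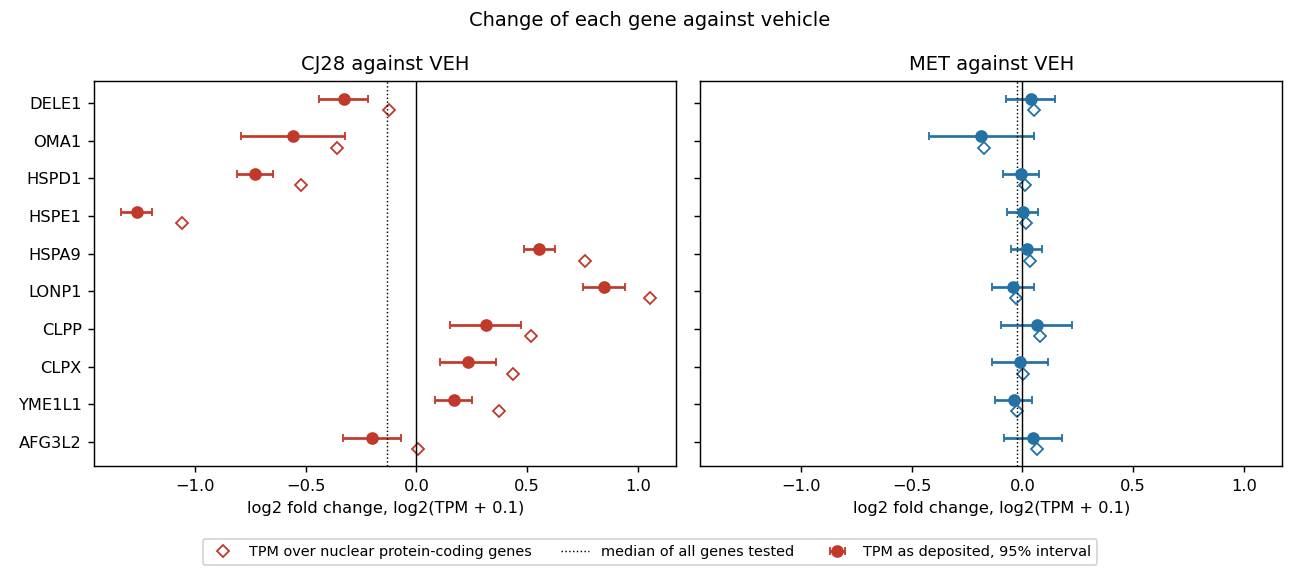
Log2 fold change on the log2(TPM + 0.1) scale (horizontal axes) of each gene (vertical axis) for CJ28 against VEH (left) and MET against VEH (right). Filled points with 95% intervals are from TPM as deposited, open diamonds from coding-only TPM, and the dotted line is the median of all genes tested. In the left panel HSPE1 and LONP1 stand at the extremes, at -1.26 and 0.85, and in the right panel all filled points lie between -0.19 and 0.07.

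For MET against VEH the smallest limma adjusted p of the 10 genes was 0.93, so none passed, and none had an unadjusted p under 0.05. Among all genes tested 0.00595% passed with adjustment and 5.2% had an unadjusted p under 0.05. In none of the 10 did the MET and VEH samples fall apart without overlap, which 2.81% of all genes did. Log2 fold changes ran from -0.19 for OMA1 to 0.07 for CLPP. The 95% interval was -0.07 to 0.07 for HSPE1, -0.09 to 0.08 for HSPD1, -0.05 to 0.09 for HSPA9 and -0.14 to 0.05 for LONP1, so changes of the size seen with CJ28 lay outside each of these. For OMA1 it was -0.42 to 0.05, which leaves room for a moderate decrease.

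Tested directly, CJ28 and MET, at equal dose and time, gave an adjusted p below 0.05 in limma for each of the 10 genes, where 55.5% of all genes tested passed, 20.9% higher and 34.6% lower in CJ28. The log2 difference was -1.26 for HSPE1, -0.72 for HSPD1, 0.89 for LONP1 and 0.54 for HSPA9. In 9 of 10 genes the samples did not overlap, against 50.2% of all genes tested. The exception was CLPP, with a log2 difference of 0.25 (limma adjusted p = 0.012, exact permutation p = 0.0571). Relative to coding genes alone, where 65.6% of genes passed, 2 of these calls did not hold: OMA1 differed by -0.19 (limma adjusted p = 0.13) and AFG3L2 by -0.06 (limma adjusted p = 0.40). This comparison and that with VEH share the CJ28 samples.

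Ratios of partner genes inside a sample do not depend on how much of the library other transcripts take. The ratio of HSPD1 to HSPE1 was 1.46 to 1.51 in VEH, 1.39 to 1.59 in MET and 2.08 to 2.21 in CJ28, a log2 increase of 0.54 from VEH to CJ28. In CJ28 the lid transcript was thus lower relative to the barrel transcript. The ratio of HSPA9 to GRPEL1, its nucleotide exchange factor, went from 8.74 to 9.39 in VEH up to 12.6 to 14.2 in CJ28 (log2 increase 0.57), while GRPEL1 itself had 17.5 ± 0.732 TPM in VEH and 17.4 ± 0.874 in CJ28. The ratio of YME1L1 to OMA1, both of which process OPA1, was 4.34 to 5.96 in VEH and 6.76 to 9.73 in CJ28 (log2 increase 0.74). For each of these 3 ratios CJ28 did not overlap with VEH or MET (exact permutation test, p = 0.0286, the smallest possible). With adjustment over all 15 tests of ratios the adjusted p was 0.0714, above 0.05. With so few samples, a value below 0.05 would have needed the smallest possible p in most of the 15 tests. CLPX to CLPP had a mean of 1.90 in VEH and 1.81 in CJ28 with overlapping samples (exact permutation p = 0.6). AFG3L2 to SPG7, its partner subunit, had means of 0.839 and 1.03, also with overlap (exact permutation p = 0.114).

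**Figure D3:**
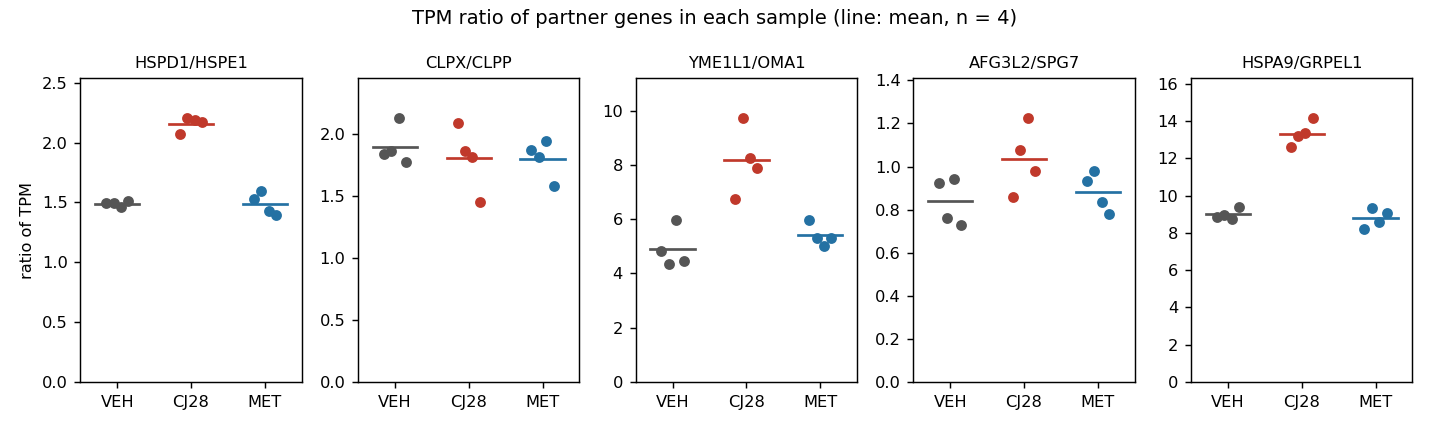
Ratio of TPM between partner genes (vertical axes, from 0) in each VEH, CJ28 and MET sample, with lines at the means (n = 4). The 4 CJ28 samples lie apart from the other 8 for HSPD1/HSPE1, YME1L1/OMA1 and HSPA9/GRPEL1, and within their range or overlapping it for CLPX/CLPP and AFG3L2/SPG7.

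Other genes of the same machinery were followed as 4 lists. Of 11 further mitochondrial chaperones and partners of the import motor, 10 were tested, and between CJ28 and VEH 6 rose, 0 fell and 4 did not pass the test, where 19.9% of all genes tested were called higher and 37.1% lower. The median log2 fold change of the 10 was 0.39, against -0.13 for all genes tested. DNAJC15, the gene not tested, was under the filter and went the other way. It was at 0.25 to 0.34 TPM in VEH, 0.09 to 0.16 in CJ28 and 0.16 to 0.26 in MET. TIMM44, which anchors HSPA9 at the import channel, rose from 12.4 ± 0.838 to 20.7 ± 0.13 TPM (log2 fold change 0.74, limma adjusted p = 2.6e-07). PAM16, another part of the import motor, rose by 0.48 and GRPEL2, a paralog of the exchange factor GRPEL1, by 0.47 on the log2 scale. TRAP1, the mitochondrial HSP90, and DNAJA3, a J protein that works with HSPA9, named after their values were seen, rose by 0.39 and 0.40. With coding-only TPM 8 of the 10 were called higher and 0 lower, against 39.2% and 26.3% of all coding genes tested.

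Of 12 other mitochondrial proteases and peptidases, 4 rose, 5 fell and 3 did not pass, with a median of -0.11, near that of all genes, of which 19.9% were called higher and 37.1% lower. HTRA2, a protease of the intermembrane space, rose by 0.42, the intermediate peptidase MIPEP by 0.39 and LACTB, a filament-forming protein of the intermembrane space, by 0.30 on the log2 scale. SPG7, the partner of AFG3L2, went from 27.6 ± 3.20 to 19.5 ± 2.26 TPM (log2 fold change -0.50), and PMPCA, a subunit of the peptidase that removes import signals, from 31.16 to 35.42 TPM in VEH to 22.58 to 27.64 in CJ28 (log2 fold change -0.45). IMMP1L, a subunit of the inner membrane peptidase, had a log2 fold change of -0.73 (SE 0.27, limma adjusted p = 0.034). With coding-only TPM 4 were called higher and 3 lower, near the 39.2% and 26.3% of all coding genes.

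Of 13 partners and substrates of the proteases described here, 3 rose, 6 fell and 4 did not pass, near the 19.9% higher and 37.1% lower of all genes tested. ALAS1, the first enzyme of heme synthesis, whose protein LONP1 and CLPX-CLPP are known to act on, rose from 24.1 ± 0.943 to 43.3 ± 0.478 TPM. That is a log2 fold change of 0.84, nearly that of LONP1. MAIP1, which binds the protease of AFG3L2, and STOML2, a scaffold of YME1L1, rose by 0.43 and 0.18. STAR, also an adrenocortical marker, was at 21.3 ± 1.08 TPM in CJ28 against 55.9 ± 2.75 in VEH. The summed level of those markers was lower in CJ28 as well. TFAM, the packaging protein of mitochondrial DNA and a substrate of LONP1, and TIMM17A, a substrate of YME1L1, had log2 fold changes of -0.50 and -0.45. Proteases act on proteins, while these are RNA levels. No link between a protease gene and the genes of its substrates was tested. OPA1, also named after its values were seen, had 32.2 ± 2.83 TPM in VEH and 30.9 ± 0.501 in CJ28 (limma adjusted p = 0.40). With coding-only TPM 6 of the 13 were called higher and 4 lower, again near the 39.2% and 26.3% of all coding genes, so neither count is particular to this list.

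The last list held 15 genes: kinases of eIF2, the eIF2 subunit gene EIF2S1, and factors of the integrated stress response, which are not particular to DELE1. Of these, 14 were tested, and 9 rose, 2 fell and 3 did not pass, with a median of 0.40. Of all genes tested 19.9% were called higher and 37.1% lower. The kinase that DELE1 activates, EIF2AK1, had 25.6 ± 1.32 TPM in VEH and 26.8 ± 2.97 in CJ28 (log2 fold change 0.06, limma adjusted p = 0.49). Among the other listed kinases, EIF2AK3 rose from 7.68 ± 0.842 to 11.3 ± 1.25 TPM (log2 fold change 0.55, limma adjusted p = 8.1e-04). EIF2AK4 had a log2 fold change of -0.05 (limma adjusted p = 0.26), and both were named after their values were seen. Whether any of these kinases bears on the factors below was not tested. DDIT3, which encodes CHOP, rose from 16.8 ± 0.316 to 155 ± 8.29 TPM (log2 fold change 3.20). ATF4, whose protein is controlled mainly at translation, rose only from 70.4 ± 2.62 to 84.1 ± 2.39 TPM (log2 fold change 0.26). ATF5, a factor tied to the mitochondrial unfolded protein response, fell from 18.6 ± 1.13 to 11.1 ± 1.17 TPM (log2 fold change -0.74, limma adjusted p = 1.4e-06). EIF2AK2 had a log2 fold change of -0.30, and TRIB3 and GDF15 had 3.53 and 5.37. GDF15 was at 8.71 to 11.19 TPM in CJ28, at 0.09 to 0.2 in VEH and at 0.1 to 0.41 in MET. It reached the 0.5 TPM of the filter only in CJ28, and its VEH level was near the pseudocount of 0.1. The size of its fold change therefore depends on that pseudocount, while its direction does not. FGF21 was under the filter, at 0.24 to 0.39 TPM in CJ28 and at most 0.04 in the other samples. With coding-only TPM 12 of the 14 were called higher and 1 lower, against 39.2% and 26.3% of all coding genes. For MET against VEH 0 of the 49 tested genes of these 4 lists passed in limma, and 2, IMMP1L and DDIT3, had an unadjusted p under 0.05, no larger a share than the 5.2% of all genes tested.

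**Figure D4:**
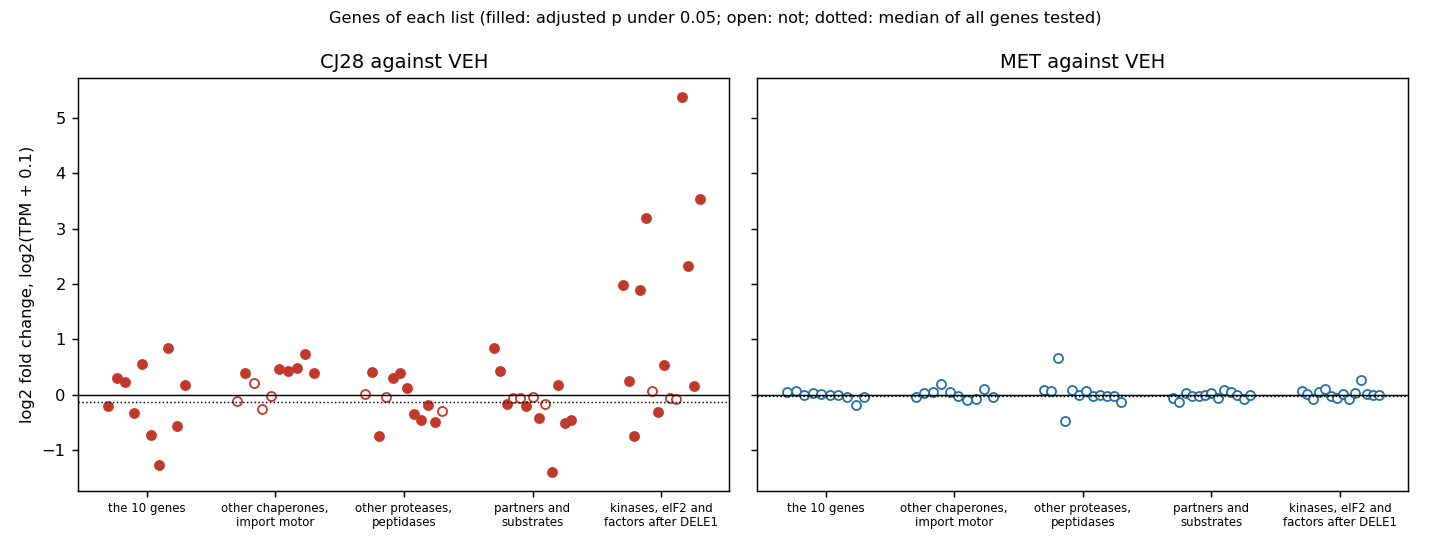
Log2 fold change on the log2(TPM + 0.1) scale (vertical axis) of the 10 genes and of the genes of the 4 further lists (horizontal axis) for CJ28 against VEH (left) and MET against VEH (right). Filled points had an adjusted p under 0.05, open points did not, and the dotted line is the median of all genes tested. The called points of the other chaperones all lie above 0, those of the proteases on both sides, and every point of the right panel is open.

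Over the 12 samples on log2(TPM + 0.1), HSPD1 and HSPE1 were each other's closest member (Pearson's r = 0.992), and HSPA9 and LONP1 were as well (r = 0.978). The closest gene of all those tested was PCNA for HSPE1 (r = 0.999), AC003005.1 for HSPA9 (r = 0.995) and GUSBP11 for LONP1 (r = 0.995). DELE1 was closest to AC004151.1 (r = 0.978) and OMA1 to SOX13 (r = 0.946). For CLPP it was KSR1 (r = 0.940), for CLPX SERINC1 (r = 0.967), for YME1L1 METTL5 (r = 0.971) and for AFG3L2 THSD8 (r = 0.962). These values describe the split between the CJ28 samples and the other 8, which many genes share, and were not tested.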

How the data were processed

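Stranded paired-end libraries were prepared from RNA after removal of ribosomal RNA. Per the labels and the submitters' processing notes, the authors trimmed reads with cutadapt (version 2.8), mapped them to GRCh38 with STAR (version 2.7.10b) and deposited TPM from RSEM (version 1.3.3), to 2 decimals. The annotation release is not given in the sources used here. The paper lists the input reads of each sample, but TPM keeps no read count per gene. The number of reads behind a value is therefore not given, and no counting error was computed. Each sample had between 29463 and 31016 genes above 0, and no pair of samples had a Pearson's r above 0.972.

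The 16815 genes that reached a TPM of 0.5 in 4 or more samples were tested. A pseudocount of 0.1 was added, log2 was taken, and VEH, CJ28 and MET were compared in a single limma model (limma version 3.58.1 in R version 4.3.3, eBayes with a trend) that had no covariates. Two-sided p-values were adjusted after Benjamini and Hochberg over all genes tested. Fold changes on this scale understate those of low genes. Single genes and ratios were compared by exact permutation tests, and the closest gene was found by Pearson's r over the 12 samples. That of HSPD1 is not reported here. Python (version 3.11.15), numpy (version 2.4.6), scipy (version 1.17.1), pandas (version 2.3.3) and matplotlib (version 3.10.9) were used. Promoter windows are from RefSeq (GRCh38.p14).

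The genes and lists were chosen with earlier results of these data known. In each further list, the 3 genes with the largest called change in either direction were named, with STAR, EIF2AK1, ATF4, ATF5, DDIT3 and SPG7 in any case. Genes outside this rule are given for context. The alternatives were pseudocounts of 1 and 0.01, no filter on low values, a filter at a mean TPM of 1, scaling by median of ratios, coding-only TPM, fits of each pair of groups alone, a block for the replicate number, sums with pseudogenes and readthrough entries, and leaving out each sample in turn.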

Additional observations from a re-analysis of the deposited data

Results flagged for a closer look

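Among 30 groups of 4 samples (10 genes in 3 groups), 2 held a sample far from the other 3, where chance gives about 1 in 20 such groups. OMA1 was at 6.48 TPM in MET-1, while the other MET samples were between 7.17 and 7.29. Without that sample the log2 fold change of OMA1 for MET against VEH was -0.15 in place of -0.19, and the limma adjusted p was 0.99. CLPX was at 27.73 TPM in CJ28-4, while the other CJ28 samples were between 31.34 and 31.98. Without it the log2 fold change of CLPX for CJ28 against VEH was 0.28 in place of 0.23, with a limma adjusted p of 7.9e-04.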

How the results depend on the processing

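Over 21 alternatives, the number of the 10 genes called stayed within 1.5 times the value given in all 3 comparisons. The number of other listed genes called was 32 to 38 (35 as reported) for CJ28 against VEH and 0 for MET against VEH, and was not compared for CJ28 against MET. Each partner ratio had 10 alternatives. The replicate block leaves a difference of means unchanged, and leaving out a sample moves a mean by less than the spread between samples. With a pseudocount of 0.1 in the ratio the differences stayed within that spread as well. But 0.1 is small beside the levels of these genes, the lowest of which was 4.47 TPM, for OMA1 in CJ28. None of these alternatives could have failed, so nothing is concluded from them. Of the 10 genes, single calls changed only when TPM was rescaled. For CJ28 against VEH, the log2 fold change of AFG3L2 was -0.05 after median-of-ratios scaling (limma adjusted p = 0.58). It turned to 0.0060 with coding-only TPM. That of DELE1 was -0.12 with coding-only TPM, where its call did not hold. After median-of-ratios scaling the change of DELE1 was -0.18 and still passed (limma adjusted p = 0.015). For CJ28 against MET, OMA1 was at -0.25 after median-of-ratios scaling (limma adjusted p no longer below 0.05) and AFG3L2 at -0.13. At -0.19 and -0.06, these genes also missed the threshold with coding-only TPM. The cause was not tested. Over the 16815 genes, median-of-ratios scaling moved the median change from -0.13 to 0.01 and the share of lower genes among those called from 65.1% to 47.4%. Over the 12506 coding genes, coding-only TPM moved them from -0.11 to 0.09 and from 63.8% to 40.2%. Over all alternatives the change from VEH to CJ28 on the log2 scale stayed between -1.28 and -1.06 for HSPE1, between -0.75 and -0.52 for HSPD1, between 0.55 and 0.76 for HSPA9 and between 0.81 and 1.05 for LONP1.

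Samples with equal replicate numbers did not deviate together. The correlation of their deviations from the group means was 0.004 to 0.039 for CJ28 and VEH, -0.063 to 0.021 for MET and VEH and -0.12 to -0.0077 for CJ28 and MET, so the numbers were not taken to pair the samples. With the replicate block the counts were again 10 genes for CJ28 against VEH, 0 for MET against VEH and 10 for CJ28 against MET. With 1 sample left out, only the values of the ratios were compared, with no test.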

Other observations

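IMMP1L, which encodes a subunit of the inner membrane peptidase, varied more among MET samples than in the other groups. It ranged from 8.97 to 24.16 TPM in MET, from 8.33 to 9.83 in VEH and from 4.74 to 7 in CJ28. Its log2 fold change for MET against VEH was 0.66 (limma adjusted p = 0.93).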
